A study of Mus musculus with 4 samples.

Results

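The 39 genes of the Hoxa, Hoxb, Hoxc and Hoxd clusters were examined in 4 RNA-seq libraries of mouse intestine. They were chosen by name alone, as every gene whose symbol is Hoxa, Hoxb, Hoxc or Hoxd followed by a paralogue number, and they are 39 of the 55203 genes in the deposited tables. The libraries came from wild-type C57BL/6NTac mice, adult males of 8 to 12 weeks kept under specific-pathogen-free conditions. The label RVC, on 2 libraries, stands for tissue treated with 4 mM ribonucleoside vanadyl complex, which blocks ribonucleases, and the label fresh frozen is on the other 2. Every library came with the same protocol text, on an RVC rinse, and how fresh frozen tissue was handled is not otherwise stated. Batch numbers 1 to 4 were each given to 1 library, so batch and treatment cannot be told apart, and no value within a batch could be had. Nothing in the labels says that the libraries came from separate animals, so p-values measure only the spread between these libraries, which may be technical.

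Hox genes encode homeodomain transcription factors that give cells their position along the head-to-tail axis of the embryo. Within a cluster the genes lie in the order of their paralogue numbers, and low numbers (anterior genes) are switched on earlier and further forward than high numbers (posterior genes). Adult tissues, gut muscle and epithelium among them, keep part of this code, and the genes of paralogue group 13 mark the hindgut and the urogenital region.

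Levels are given as FPKM, fragment numbers scaled to transcript length and to the mapped fragments of the library, summed over the transcripts of a gene. They compare genes per length. A run of 4 values without names is in the order RVC 1, RVC 2, fresh frozen 1, fresh frozen 2. The titles and tissue labels name the ileum, while the treatment protocol and the design text name the distal colon. All 10 colon marker genes were at 1 FPKM or more in every library, with Car1, a carbonic anhydrase of colonocytes, at 1576 to 1781 FPKM. Of the ileal genes, Fgf15 and Apoa4 were listed at 0 in every library, and Fabp6, the ileal bile acid binding protein, was at 2.70 to 3.96 FPKM. Of the 10 ileal genes 6 were at 1 FPKM or more in every library, among them Slc5a1, a glucose transporter, at 54.9 to 68.1 FPKM and Fabp2, a fatty acid binding protein, at 14.5 to 43.7. The label ileum was thus not met by Fgf15 and Apoa4. Read depth was judged from coverage per FPKM and ranged from 72.6% to 100% of the deepest library, and absolute counts were not used here.

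Posterior genes of 3 clusters made up most of the Hox signal. Only 10 of the 39 genes were at 1 FPKM or more in all 4 libraries, 25.6%, against 50.5% of 21562 protein-coding genes. These were Hoxa3, Hoxa5, Hoxa7, Hoxa9, Hoxa10, Hoxa13, Hoxb9, Hoxb13, Hoxd10 and Hoxd13. A further 5 genes (Hoxa6, Hoxb2, Hoxb5, Hoxd11 and Hoxd12) reached 1 FPKM in some libraries only, and 17 stayed under it but above 0 in at least 1 library. The remaining 7 genes, Hoxb1, Hoxc9, Hoxc10, Hoxc11, Hoxc12, Hoxc13 and Hoxd1, were listed at 0 in every library. The summed Hox level was 213 FPKM (RVC 1), 231 (RVC 2), 256 (fresh frozen 1) and 182 (fresh frozen 2). In bulk tissue, fewer cells of a type and less RNA per cell cannot be told apart.

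**Figure D1:**
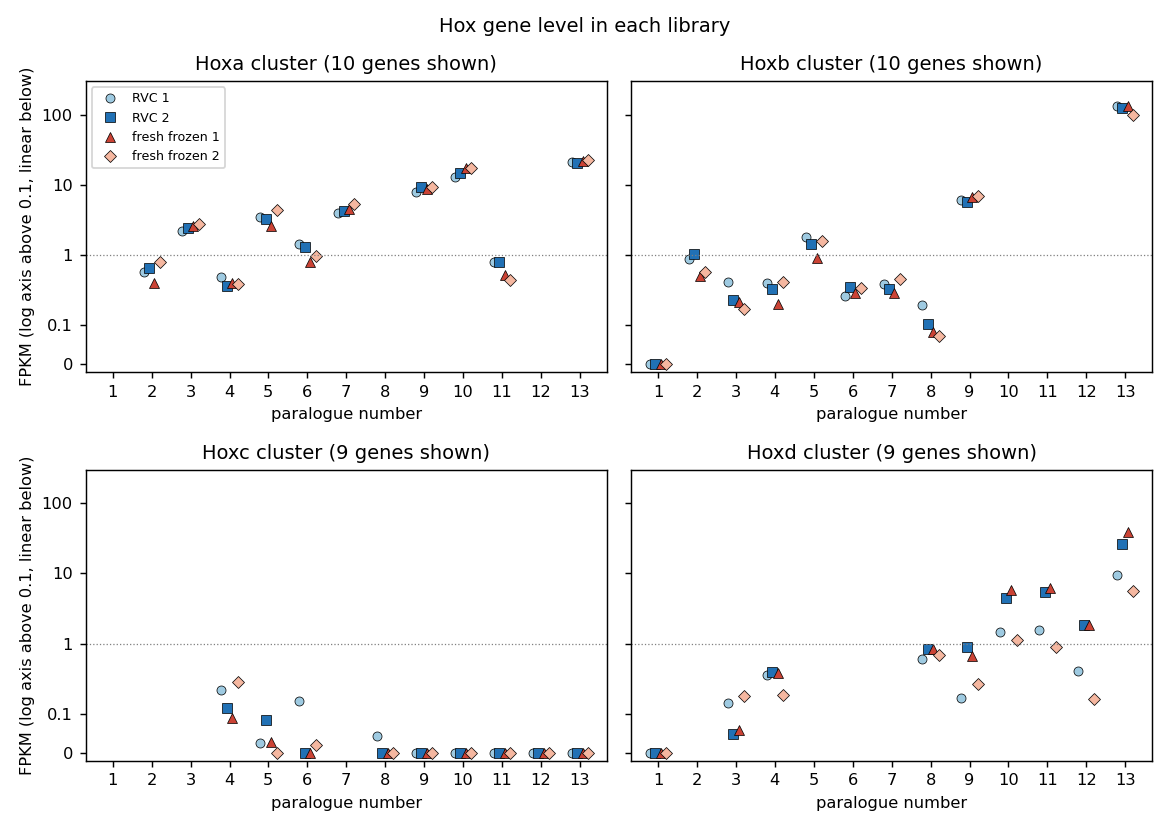
FPKM of Hox genes in each of the 4 libraries, plotted by paralogue number for the 4 clusters, on an axis that is logarithmic above 0.1 and linear below; the dotted line marks 1 FPKM. Hoxb13 stands highest, at 98.5 to 133 FPKM, the Hoxc cluster stays under 0.3 FPKM throughout, and among genes that reach 1 FPKM the widest spread between libraries is that of Hoxd10 to Hoxd13.

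By cluster, Hoxb held 60.0% ± 5.27 of the summed Hox FPKM (SD, n = 4 libraries), Hoxa 27.2% ± 5.20, Hoxd 12.7% ± 8.05 and Hoxc 0.129% ± 0.0741. The Hoxd share was 6.72% (RVC 1), 17.3% (RVC 2), 21.6% (fresh frozen 1) and 5.05% (fresh frozen 2). It was thus low in 1 library of each treatment and high in the other. By paralogue number, group 13 held 73.8% ± 3.18, and Hoxb13 by itself 62.4% (RVC 1), 53.6% (RVC 2), 51.4% (fresh frozen 1) and 54.1% (fresh frozen 2). Groups 10 and 9 followed with 8.56% ± 1.36 and 7.21% ± 1.24. The lowest shares among the groups described here were those of group 8 (0.395% ± 0.0271) and group 12 (0.454% ± 0.364).

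**Figure D2:**
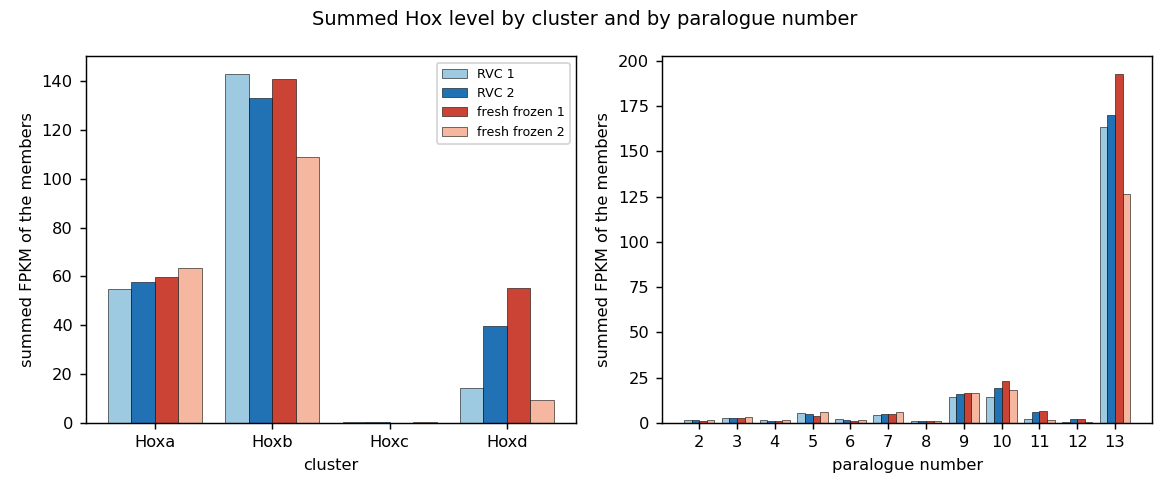
Summed FPKM of the Hox genes by cluster (left) and by paralogue number (right, from paralogue number 2), with 1 bar per library. The Hoxb bars, at 109 to 143 FPKM, are mostly Hoxb13, and the Hoxd bars differ most between libraries, from 9.20 to 55.4 FPKM.

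Hoxb13, known for its roles in the prostate and the tail end of the embryo, was the most abundant Hox gene in every library. The gene (ENSMUSG00000049604, chr11:96085142-96088273, plus strand, GRCm39) has 1 transcript in the tables. It was at 133 FPKM (RVC 1), 124 (RVC 2), 132 (fresh frozen 1) and 98.5 (fresh frozen 2), a mean of 122 ± 16.0 (SD, n = 4). Fresh frozen 2 was the lowest, with confidence bounds deposited by the authors of 96.1 to 101, and the lowest value of Hoxb13 was still above the highest of any other Hox gene, 39.5 for Hoxd13. Hoxb13 lay above 97.8% of protein-coding genes by its mean. Its level was 22.0 times that of Hoxb9, the next gene of its cluster, in RVC 1, 21.7 times in RVC 2, 19.6 times in fresh frozen 1 and 14.1 times in fresh frozen 2.

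Hoxa13, which with Hoxd13 patterns the hindgut, the genital tubercle and the digits, was the steadiest of the 14 Hox genes tested between treatments. The gene (ENSMUSG00000038203, chr6:52234674-52237788, minus strand) was at 20.9 FPKM (RVC 1), 20.5 (RVC 2), 21.6 (fresh frozen 1) and 22.2 (fresh frozen 2). Its highest library was 1.08 times its lowest, and 97.8% of the 13771 genes tested had at least that ratio. Hoxd13 (ENSMUSG00000001819, chr2:74498654-74501943, plus strand) had a similar mean, 20.2 against 21.3 FPKM, but its 4 values were 9.59, 26.0, 39.5 and 5.68 FPKM in the same order of libraries. The ratio of Hoxd13 to Hoxa13 was 0.459 (RVC 1), 1.27 (RVC 2), 1.83 (fresh frozen 1) and 0.256 (fresh frozen 2), so the order of these paralogues changed between libraries of the same treatment. Hoxc13, known from hair and nail, was listed at 0 in all 4 libraries.

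Promoter sequences of RefSeq genes (build GRCm38.p6, 250 bases before the annotated start) were found for 22 of the 39 Hox genes. The 3 below show the paralogues Hoxd13 and Hoxa13, of similar mean and unlike spread, and Hoxd1, which lies at the other end of the Hoxd cluster and was listed at 0. They were chosen after the values were seen. Each is printed 5′ to 3′ on the strand of its gene, chr2:74667975-74668224 (plus) for Hoxd13, chr6:52260881-52261130 (minus) for Hoxa13 and chr2:74762730-74762979 (plus) for Hoxd1, in GRCm38.p6 and not in the build of the tables. Capitals mark matches to TATAAA, the core of the TATA box, on either strand, which overlap in the run shown for Hoxd13.
Hoxd13: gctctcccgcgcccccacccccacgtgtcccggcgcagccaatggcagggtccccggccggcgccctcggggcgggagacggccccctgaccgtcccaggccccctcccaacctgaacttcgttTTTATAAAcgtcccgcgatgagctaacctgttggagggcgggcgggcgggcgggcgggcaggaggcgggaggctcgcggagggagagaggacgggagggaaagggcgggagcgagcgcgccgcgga
Hoxa13: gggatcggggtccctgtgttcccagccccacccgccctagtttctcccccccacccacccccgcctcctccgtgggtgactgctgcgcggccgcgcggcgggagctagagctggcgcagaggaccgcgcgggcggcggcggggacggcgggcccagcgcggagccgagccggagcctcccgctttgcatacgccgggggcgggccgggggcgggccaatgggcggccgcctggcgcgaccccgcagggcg
Hoxd1: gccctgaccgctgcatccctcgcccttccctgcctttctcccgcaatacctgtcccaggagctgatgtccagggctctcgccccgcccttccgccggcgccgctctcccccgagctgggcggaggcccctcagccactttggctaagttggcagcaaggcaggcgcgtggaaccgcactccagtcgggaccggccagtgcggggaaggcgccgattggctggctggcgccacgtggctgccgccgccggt
All 3 are rich in G and C, 74.4% for Hoxd13, 80.0% for Hoxa13 and 71.6% for Hoxd1, with 31, 35 and 24 CpG dinucleotides. The promoter of Hoxd1, listed at 0, was thus CpG-rich as well. Over the 24 promoters of the 22 Hox genes the median GC content was 58.6% and the median CpG count 12.5, against 52.4% and 6 over all 32851 promoters. TATAAA was present on either strand in 16.67% of Hox promoters (4 of 24: Hoxa10, Hoxb8, Hoxd4 and Hoxd13) and 12.37% of all promoters. CAATAAA and TCGTAAA, core letters bound by posterior Hox and caudal proteins, were searched on both strands. Each was found in 1 Hox promoter, that of Hoxb8, and in 4.204% and 0.4779% of all promoters. These motifs can overlap, and a match describes letters, not binding.

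The Hoxa cluster (chromosome 6, minus strand) had higher levels towards its posterior end, with breaks. Hoxa2, which patterns the hindbrain, was low, at 0.567 FPKM (RVC 1), 0.649 (RVC 2), 0.403 (fresh frozen 1) and 0.788 (fresh frozen 2). Hoxa3, needed for the thymus and parathyroid, was listed at 2.17, 2.41, 2.57 and 2.78 FPKM. Most of that level sat in transcripts that run across neighbouring Hox genes. The most abundant transcript of Hoxa3, a coding one with 63.0% of its level, spans Hoxa4, Hoxa5 and Hoxa6. Another with 21.4%, annotated as a retained intron, spans Hoxa5 and Hoxa6. Without these 2 transcripts the mean of Hoxa3 was 0.389 in place of 2.48 FPKM. That remainder sat in a transcript annotated without a defined coding sequence, so it is not the level of coding Hoxa3 RNA. Hoxa4 was at 0.487, 0.366, 0.396 and 0.393 FPKM.

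In the middle of the cluster, Hoxa5, needed for lung and stomach development, was at 3.45 FPKM (RVC 1), 3.22 (RVC 2), 2.62 (fresh frozen 1) and 4.33 (fresh frozen 2). The RVC values lay between the fresh frozen ones. Hoxa6 was at 1.41, 1.28, 0.804 and 0.962 FPKM, with both RVC libraries above both fresh frozen libraries. Hoxa7 was at 4.00, 4.30, 4.47 and 5.25 FPKM, with the opposite separation. Of its 5 transcripts the most abundant, a coding one, held 56.9%.

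Posterior Hoxa genes were higher, apart from Hoxa11. Hoxa9, known as a regulator of blood stem cells and of the trunk skeleton, was at 7.89 FPKM (RVC 1), 9.28 (RVC 2), 8.81 (fresh frozen 1) and 9.23 (fresh frozen 2), with overlapping groups. Hoxa10 (ENSMUSG00000000938, chr6:52208177-52217834), needed in the uterus and the lumbar spine, was at 13.1, 14.8, 17.5 and 17.1 FPKM, with both fresh frozen libraries above both RVC libraries. The most abundant transcript of Hoxa10, with 48.4% of its level, is annotated without a defined coding sequence, while 95.9% of the level of Hoxa13 sat in a coding transcript. Hoxa11, which acts in limb, kidney and uterus, was at 0.792, 0.790, 0.522 and 0.442 FPKM. Hoxa11 was thus a low gene between Hoxa10 and Hoxa13, in every library.

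The Hoxb cluster (chromosome 11, 96085142 to 96259082, plus strand) was low from Hoxb1 to Hoxb8 and high at its posterior end. Hoxb1, a hindbrain gene, was listed at 0. Hoxb2 was at 0.864 FPKM (RVC 1), 1.02 (RVC 2), 0.501 (fresh frozen 1) and 0.572 (fresh frozen 2), and Hoxb5, which acts in the neural crest that forms the gut's neurons, at 1.78, 1.42, 0.920 and 1.58. Hoxb3 (0.169 to 0.409), Hoxb4 (0.201 to 0.417), Hoxb6 (0.264 to 0.352), Hoxb7 (0.288 to 0.462) and Hoxb8 (0.0716 to 0.197) all stayed under 1 FPKM. Hoxb9, which patterns the thoracic skeleton, was at 6.02, 5.70, 6.73 and 6.98 FPKM, with both fresh frozen libraries above both RVC libraries. Hoxb9 has 2 coding transcripts, of which the more abundant held 81.3%. Between Hoxb9 and Hoxb13 the cluster has no other Hox gene.

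The Hoxc cluster (chromosome 15, 102829538 to 102945278, plus strand) was nearly silent, and what was listed came from its anterior end. Hoxc4 was at 0.221 FPKM (RVC 1), 0.123 (RVC 2), 0.0888 (fresh frozen 1) and 0.289 (fresh frozen 2), the only Hoxc gene above 0 in all 4 libraries. Hoxc5 was at 0.0263, 0.0842 and 0.0292 FPKM in the first 3 of these and at 0 in fresh frozen 2. Hoxc6 was at 0.154 FPKM in RVC 1 and 0.0208 in fresh frozen 2, and Hoxc8, a gene of brachial motor neurons, at 0.0429 FPKM in RVC 1, with 0 in the other libraries. Hoxc9 to Hoxc13 were at 0 throughout. A value of 0 in these tables is an estimate, and read counts are not used here. The deposited upper bound of Hoxc10 was 0.0378 (RVC 1), 0.0386 (RVC 2), 0.0421 (fresh frozen 1) and 0 (fresh frozen 2). For Hoxc9, Hoxc11, Hoxc12 and Hoxc13 the upper bound was itself 0, which gives no limit. The lower bounds of Hoxc5, Hoxc6 and Hoxc8 were 0 in every library.

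The Hoxd cluster (chromosome 2, 74498654 to 74595486, plus strand) split into a low anterior part and a posterior part whose level differed several-fold between libraries. Hoxd1 was listed at 0. Hoxd3 was at 0.141 FPKM (RVC 1), 0.0482 (RVC 2), 0.0597 (fresh frozen 1) and 0.180 (fresh frozen 2), Hoxd4 at 0.358, 0.397, 0.379 and 0.187, and Hoxd8 at 0.601, 0.849, 0.832 and 0.684. Hoxd3, at these low values, was higher in RVC 1 and fresh frozen 2. The sum from Hoxd1 to Hoxd8 was 1.10, 1.29, 1.27 and 1.05 FPKM. The sum from Hoxd9 to Hoxd13 was 13.2, 38.6, 54.1 and 8.15 FPKM. RVC 2 and fresh frozen 1 were the 2 high libraries and RVC 1 and fresh frozen 2 the 2 low ones, so the difference ran within each treatment.

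Each posterior Hoxd gene had this order. Hoxd9 was at 0.166 FPKM (RVC 1), 0.888 (RVC 2), 0.676 (fresh frozen 1) and 0.269 (fresh frozen 2). Hoxd10 (chr2:74522268-74525449), a gene of limb and lumbar motor neuron patterning, was at 1.47, 4.42, 5.83 and 1.15 FPKM, and Hoxd11 (chr2:74509901-74517360), which acts with Hoxa11 in forearm and kidney, at 1.56, 5.43, 6.26 and 0.889. Hoxd12 (chr2:74505357-74508049), a limb gene that also acts at the anal sphincter, was at 0.415, 1.85, 1.87 and 0.162 FPKM. Of the level of Hoxd11, 78.6% sat in a transcript annotated without a defined coding sequence. For all 5 genes, Hoxd13 included, both high libraries exceeded both low ones. The bounds deposited by the authors for Hoxd13 were 8.81 to 10.4 in RVC 1, 24.7 to 27.3 in RVC 2, 37.8 to 41.1 in fresh frozen 1 and 5.14 to 6.23 in fresh frozen 2, so no pair of libraries overlapped. Those of Hoxd12 overlapped between RVC 2 (1.51 to 2.19) and fresh frozen 1 (1.52 to 2.23) and did not overlap between RVC 1 (0.255 to 0.575) and fresh frozen 2 (0.0720 to 0.251).

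The ratio of the highest to the lowest library was 11.6 for Hoxd12, 7.05 for Hoxd11, 6.95 for Hoxd13, 5.34 for Hoxd9 and 5.09 for Hoxd10. It was 3.72 for Hoxd3, 2.13 for Hoxd4 and 1.41 for Hoxd8. Hoxd9, Hoxd8, Hoxd4 and Hoxd3 stayed under 1 FPKM in every library, where a ratio is less certain. Of the 14 Hox genes that passed the filter on low values, 4 (Hoxd10 to Hoxd13) had a highest library at least 2-fold above the lowest, against 8.74% of all 13771 genes tested. The other 10 ranged from 1.08 for Hoxa13 to 1.93 for Hoxb5, around a median of 1.36 over all genes tested. A ratio as large as that of Hoxd13 was reached by 0.639% of all genes tested and as large as that of Hoxd10 by 0.857%. A count of genes in this order of libraries was added after the pattern had been seen. RVC 2 at least 2-fold above RVC 1, together with fresh frozen 1 at least 2-fold above fresh frozen 2, was found for 14 of 13771 genes, 0.102%. Of these 14, 4 were Hoxd10 to Hoxd13 and another was Gm28309, a noncoding gene that overlaps Hoxd11 and Hoxd10. Hoxd12 and Gm28309 were under 1 FPKM in RVC 1 and fresh frozen 2. They passed the filter on low values only through RVC 2 and fresh frozen 1, so their place in these counts is in part set by their spread.

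**Figure D3:**
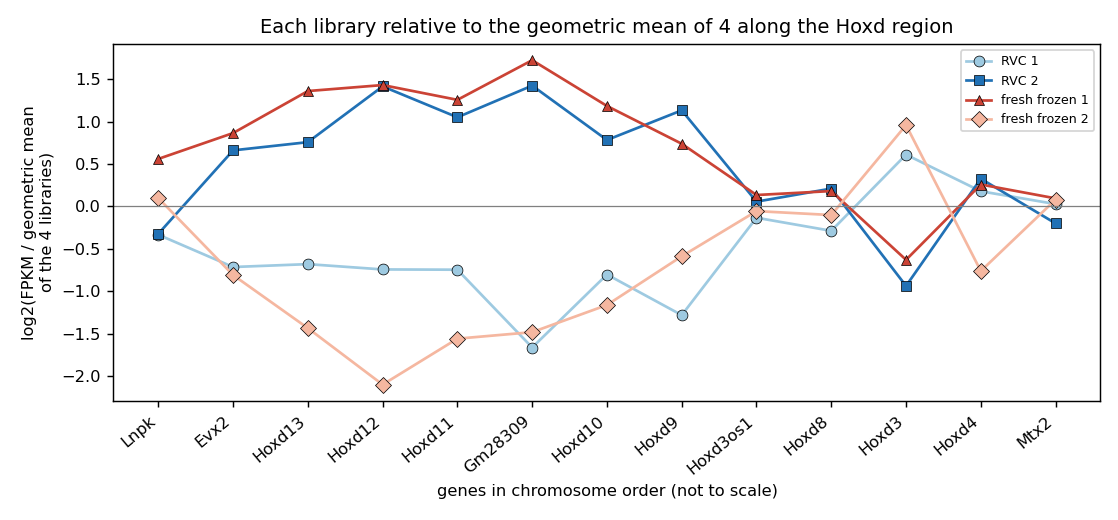
Level of each library relative to the geometric mean of the 4 libraries, on a log2 scale, for genes of the Hoxd region in chromosome order (not to scale), leaving out genes with a 0 or a mean under 0.1 FPKM. From Evx2 through Hoxd13 to Hoxd9, RVC 2 and fresh frozen 1 lie above 0 and RVC 1 and fresh frozen 2 below it. Hoxd8, Hoxd3os1 and Mtx2 lie near 0. Hoxd3 is drawn in the opposite order, at 0.0482 to 0.180 FPKM, where the order is uncertain.

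Genes beside the posterior Hoxd genes were compared for this order and for the size of the ratios. Evx2, a homeobox gene that lies next to Hoxd13 and is read from the other strand, was at 0.351 FPKM (RVC 1), 0.911 (RVC 2), 1.05 (fresh frozen 1) and 0.329 (fresh frozen 2). Gm28309 (chr2:74513790-74524538), a noncoding gene whose span overlaps those of Hoxd11 and Hoxd10 on the same strand, so that reads may be divided among them, was at 0.595, 5.06, 6.23 and 0.674 FPKM. Both had the order of Hoxd13. Further out, Lnpk and Mtx2 did not differ 2-fold within either treatment. Lnpk, a protein-coding gene beyond Evx2, was at 6.30, 6.34, 11.7 and 8.50 FPKM, a ratio of 1.01 within RVC and 1.38 within fresh frozen, and Mtx2, beyond Hoxd1, at 17.0, 14.5, 17.8 and 17.6. Hoxd3os1, an antisense RNA whose span contains Hoxd8 and whose exons share 347 bases with Hoxd3 and Hoxd4, was at 0.227, 0.258, 0.273 and 0.239 FPKM, a ratio of 1.14 within each treatment. Among the genes named here, those at least 2-fold apart in this order within both treatments were the ones from Evx2 to Hoxd9. The order itself was not limited to them, as Hoxd8, Hoxd4 and Hoxd3os1 had it at smaller ratios. For Hoxd8 these were 1.41 within RVC and 1.22 within fresh frozen, and for Hoxd4 1.11 and 2.03. Hoxd3 was listed in the opposite order, with RVC 2 at 0.342 times RVC 1 and fresh frozen 1 at 0.332 times fresh frozen 2. Its values were only 0.0482 to 0.180 FPKM. The lower bounds deposited for its 6 transcripts were 0 in RVC 1, RVC 2 and fresh frozen 1. Its most abundant transcript also differed between RVC 1 and fresh frozen 2, so the order of Hoxd3 is uncertain.

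Marker lists are given beside this pattern for the cell types that a piece of gut wall holds. Smooth muscle genes summed to 1658 FPKM (RVC 1), 2465 (RVC 2), 1081 (fresh frozen 1) and 1109 (fresh frozen 2), with 6 of 12 genes in the order of Hoxd13 (RVC 2 above RVC 1 and fresh frozen 1 above fresh frozen 2). Fibroblast genes summed to 218, 260, 219.5 and 218 FPKM (2 of 7 genes in that order), epithelial genes to 5303, 5077, 5552 and 4259 (1 of 9), and endothelial genes to 18.6, 18.2, 9.63 and 11.5 (2 of 5). All 6 enteric neuron genes were in the opposite order, with sums of 33.4, 24.9, 19.2 and 26.6 FPKM. Among all genes tested 30.9% were in the order of Hoxd13 and 22.7% in the opposite order, without a fold limit. Of these 5 sums, that of smooth muscle had the widest span between libraries. No gene of the 5 lists was at 0 in all libraries, and 12 of 12 smooth muscle, 7 of 7 fibroblast, 9 of 9 epithelial, 3 of 5 endothelial and 4 of 6 enteric neuron genes were at 1 FPKM or more in each. Of the 10 colon genes 0 were in the order of Hoxd13 and 3 in the opposite order. Among these 3, and named after its values were seen, was Ang4, a Paneth and goblet cell antimicrobial, was at 41.8, 1.12, 1.95 and 13.2 FPKM, low in the libraries where Hoxd13 was high. The part of cell mixture in the Hoxd values was not tested.

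Levels were ordered by paralogue number to different degrees. Across the genes of a cluster, Spearman's rho between paralogue number and FPKM was 0.736 in 3 libraries and 0.664 in fresh frozen 2 for Hoxa (11 genes), and 0.406 to 0.552 for Hoxb (10 genes). For Hoxd (9 genes) it was 0.833 (RVC 1), 0.95 (RVC 2), 0.933 (fresh frozen 1) and 0.617 (fresh frozen 2). For Hoxc it was negative, -0.858 to -0.639, where most values are tied at 0. These are descriptions over genes of 1 library, which share depth and neighbours and are not replicates. In the order of mean levels, Hoxb13 was above every other gene in each library, the ranges of Hoxa13, Hoxd13 and Hoxa10 met through the wide range of Hoxd13, and Hoxa10, Hoxa9, Hoxb9 and Hoxa7 followed with no overlap from each to the next. From Hoxa7 down, neighbours overlapped, apart from Hoxa3 above Hoxb5.

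**Figure D4:**
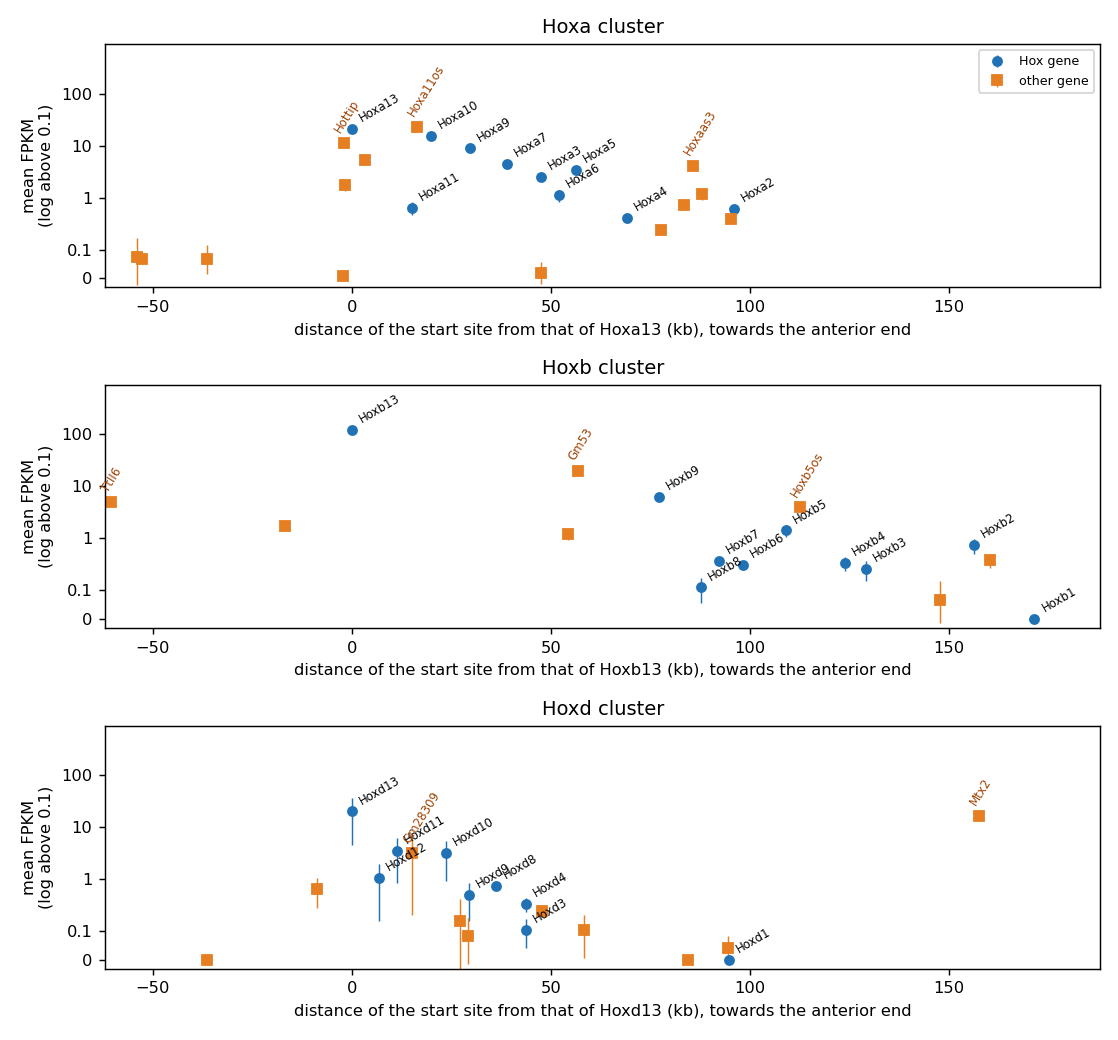
Mean FPKM (bars: SD, n = 4 libraries) of genes with a transcript of at least 300 nt against the distance of their start from that of the group 13 gene, for the Hoxa, Hoxb and Hoxd clusters, on an axis that is logarithmic above 0.1 and linear below. Hox genes are circles and other genes squares; Hoxa11 is low beside Hoxa10 and Hoxa11os, and Hoxb13 stands apart from Hoxb9.

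Noncoding genes of the clusters were in places more abundant than the Hox genes beside them. Hoxa11os, read from the strand opposite to Hoxa11, was at 24.2 FPKM (RVC 1), 23.8 (RVC 2), 21.2 (fresh frozen 1) and 23.0 (fresh frozen 2), far above Hoxa11. The exons of the 2 genes share 806 bases. A strand setting is not given in the sources used here, so reads from a Hox gene and its antisense partner cannot be told apart, and the level of Hoxa11 is uncertain. The same holds for Hoxa7 and Hoxaas3 (586 shared bases), Hoxb5 and Hoxb5os (264), Hoxb3 and Hoxb3os (2250), and Hoxb2 and Hoxb3os (953). It holds too for Hoxa3, with Hoxaas2 (504), Gm29430 (437), Hoxaas3 (297) and 5730596B20Rik (292), for Hoxa4 with Gm29430 (255), for Hoxd3 and Hoxd4 with Hoxd3os1 (347 each), and for Hoxd3 with Haglr (21). Hottip, which is read away from Hoxa13 and is known to keep posterior Hoxa genes active, was at 11.2, 10.1, 11.1 and 13.4 FPKM. Gm53, a noncoding gene in the gap between Hoxb13 and Hoxb9, was at 21.2, 18.8, 19.5 and 20.4 FPKM, above all Hoxb genes but Hoxb13. Hotair, a noncoding RNA of the Hoxc cluster, was listed at 0 in all 4 libraries.

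The clusters also hold miRNA genes, and their mature products are shown because members of different clusters share a seed (RefSeq, build GRCm38.p6; capitals mark bases 2 to 8).
mmu-miR-196a-5p: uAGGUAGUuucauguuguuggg
mmu-miR-196b-5p: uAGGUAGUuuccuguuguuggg
mmu-miR-10a-5p: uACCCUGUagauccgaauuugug
mmu-miR-10b-5p: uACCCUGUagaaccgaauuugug
The miR-196 pair, which is known to target Hoxb8, comes from the Hoxb and Hoxa clusters and shares the seed AGGUAGU. The miR-10 pair comes from the Hoxb and Hoxd clusters and shares ACCCUGU. Mir196b was listed at 253 FPKM (RVC 1), 76.7 (RVC 2), 3.07e-29 (fresh frozen 1) and exactly 0 (fresh frozen 2), and Mir196a-1 at 0 in both RVC libraries, 22.7 in fresh frozen 1 and 26.1 in fresh frozen 2. Mir10a, Mir10b and Mir196a-2, which lies in the Hoxc cluster, were listed at 0 throughout. Hairpins of 85 nt (Mir196b) and 102 nt (Mir196a-1) are shorter than the 150-bp reads, so these values do not measure the miRNAs, and neither gene was tested.

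RVC and fresh frozen libraries were compared over 13771 genes with limma. The labels give no separate question for this comparison. Of the 39 Hox genes 14 passed the filter on low values and were tested. None of the 14 passed an adjusted p of 0.05 in limma, against 5 of all genes tested (0.0363%). At an unadjusted p under 0.05 there was 1 Hox gene, Hoxa10, against 18.4% of all genes. In 6 of the 14 the RVC and fresh frozen libraries did not overlap, against 53.2% of all genes. By direction, 6 Hox genes had higher and 8 lower values in RVC, and the median log2 fold change was -0.04, against 0.01 over all genes tested. With 2 libraries against 2, an exact permutation test of a single gene could not go below p = 0.333.

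The 3 Hox genes of smallest p are given in full, on the log2(scaled FPKM + 1) scale, as RVC less fresh frozen. Hoxa10 was lower in RVC by a log2 fold change of -0.29 (SE 0.114, limma adjusted p = 0.243). Both RVC libraries were below both fresh frozen ones. Hoxa6 was higher by 0.32 (SE 0.157, limma adjusted p = 0.314) and Hoxb9 lower, at -0.19 (SE 0.121, limma adjusted p = 0.415), neither past the threshold. Hoxd13 had a log2 fold change of 0.05 with an SE of 0.771, the widest of the 14, with 1 high and 1 low library in each group.

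**Figure D5:**
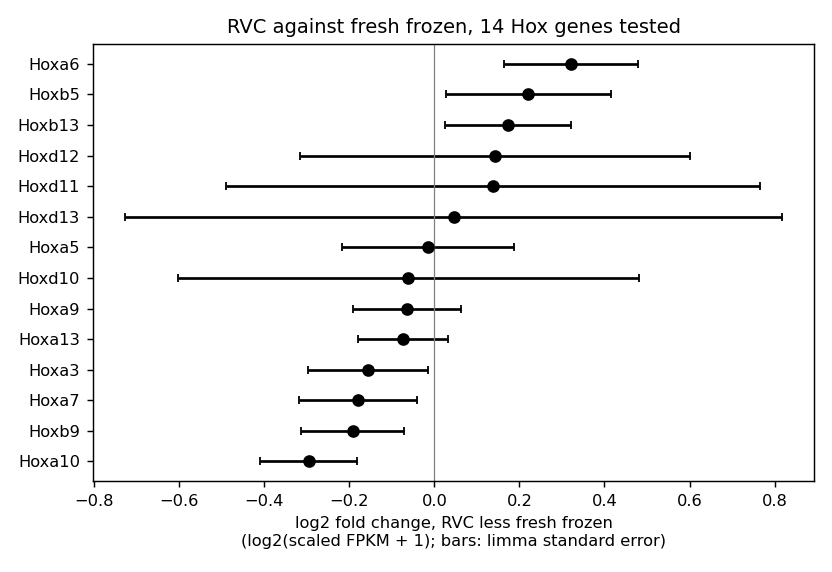
Log2 fold change of RVC less fresh frozen on the log2(scaled FPKM + 1) scale for the 14 Hox genes tested; bars are limma standard errors. The bars of Hoxd10 to Hoxd13 are the widest, up to 0.77 for Hoxd13, and none of the 14 genes passed the adjusted threshold.

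Smooth muscle and endothelial genes had higher values in RVC, which is given here beside the Hox comparison. All 12 smooth muscle genes were at an unadjusted p under 0.05 (limma), against 18.4% of all genes tested, their median log2 difference being 0.83, and 4 of 5 endothelial genes (median 0.58), and none passed the adjusted threshold. The part of cell mixture in the differences of Hox genes between treatments was not tested.

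Genes that act with or upstream of Hox genes were taken from lists. TALE cofactors, homeodomain partners that bind DNA together with Hox proteins, were present: 7 of 9 were at 1 FPKM or more in all libraries. Pbx2 averaged 9.25 ± 0.801 FPKM and Meis2 5.20 ± 1.93 (SD, n = 4), the latter highest in RVC 1 at 8.08. The caudal factors Cdx1 and Cdx2, which activate Hox genes in the embryo and keep intestinal identity in the adult, differed in level. Cdx1 was at 58.1, 61.3, 59.0 and 61.4 FPKM and Cdx2 at 8.93, 7.21, 6.58 and 11.6, and Cdx4 was listed at 0. Neither Cdx1 nor Cdx2 had the order of Hoxd13, and Cdx2 had the opposite order within both treatments.

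Chromatin regulators of Hox clusters were broadly present. Of the Polycomb genes, which keep silent Hox genes silent, 20 of 23 were at 1 FPKM or more in all libraries, with Eed at 21.2 ± 2.15, Rybp at 15.4 ± 1.54 and Mtf2 at 13.4 ± 1.65 FPKM (SD, n = 4). Of the Trithorax and H3K27 demethylase genes, which act against them, all 10 were, with Dpy30 at 30.7 ± 4.70, Kdm6a at 11.8 ± 0.986 and Ash2l at 10.2 ± 0.562. Retinoic acid, a signal that turns on anterior Hox genes, acts through receptors of which 4 of 6 were at that level, led by Rxra at 15.9 ± 2.59, Rxrb at 7.71 ± 0.558 and Rara at 6.79 ± 1.18. No gene of these lists, or of the noncoding and flanking lists, passed the adjusted threshold between RVC and fresh frozen in limma. At an unadjusted p under 0.05, where 18.4% of all genes tested lay, there were 5 of 22 Polycomb genes tested, 1 of 10 Trithorax genes, 2 of 4 retinoic acid receptors, 3 of 8 flanking genes, 1 of 8 noncoding genes, 0 of 7 TALE cofactors and 0 of 2 caudal factors. The medians of their log2 fold changes ran from -0.17 for flanking genes to 0.31 for retinoic acid receptors.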

How the data were processed

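The authors aligned 150-bp read pairs from ribosomal RNA-depleted libraries with TopHat2 2.1.1 to GRCm39 and ran Cufflinks 2.2.1, per the submitters' processing notes and design text. The deposited values are FPKM per transcript with confidence bounds, per the file headers, and are not counts. The deposited coverage, a signal of reads per base, was used for relative depth only, and the transcript length in nt came from the same tables, per the file headers. The annotation release and a strand setting are not given in the sources used here. FPKM divides reads between overlapping transcripts by likelihood, which bears on antisense and overlapping Hox genes.

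Gene FPKM was the sum over transcripts. All 85 Hox transcripts had status OK. Libraries were scaled by median ratio (factors 0.992 to 1.01), and RVC was compared with fresh frozen on log2(scaled FPKM + 1), pseudocount 1, with limma 3.58.1 in R 4.3.3 (mean-variance trend, two-sided, no covariate) and Benjamini-Hochberg adjustment over 13771 genes. Genes tested had a mean of at least 1, a longest transcript of at least 300 nt and status OK throughout. The script was tested on simulated data. Hox genes are named with their levels, except for an item that is not reported here, and fold changes are given for the 3 of smallest p. Transcript types and exons came from GENCODE vM39, which held 81 of the 85 transcripts. Promoters and miRNAs came from RefSeq tables of GRCm38.p6, and no protein sequence is printed. The Hox genes, the lists and the alternatives were chosen with earlier results of these data known.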

Additional observations from a re-analysis of the deposited data

How the results depend on the processing

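The count of Hox genes past an adjusted p of 0.05 in limma was 0 in each of the 15 alternatives, with 0 to 3 Hox genes at an unadjusted p under 0.05. Over all genes the count was 5, against 0 with no filter on low values, 0 with no trend, 0 with transcripts under 300 nt left out (unadjusted 3531, 2461 and 2577), 2 with a mean of at least 5 and 1 with the most abundant transcript only. Leaving out 1 library gave 8 (without RVC 2) to 40 (without fresh frozen 1), with 29 without RVC 1 and 22 without fresh frozen 2, where the lone library is assumed to vary like the other group. With the sample number as a replicate block the count was 112, and 0 Hox genes passed. The sample numbers share only a number: over 13771 genes the RVC 1 less RVC 2 and fresh frozen 1 less fresh frozen 2 differences correlated at -0.13. A crossed pairing, added after seeing the data, gave 12. The cause was not tested.

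Log2 fold changes kept their direction and their side of the threshold in all 44 refits. They were -0.59 to -0.22 for Hoxa10, 0.25 to 0.57 for Hoxa6 and -0.23 to -0.15 for Hoxb9. The RVC and fresh frozen libraries do not overlap for any of these 3 genes, so leaving out 1 library could hardly reverse the direction. Changes of filter, length minimum, trend or block leave the fold change itself as it is. The 44 refits are thus no measure of how steady the fold changes are. With only the most abundant transcript of each gene, the share of the summed Hox FPKM was 21.2% in Hoxa, 65.4% in Hoxb and 80.95% in paralogue group 13, by construction of fewer transcripts. Of the recomputed mean levels, 302 moved by less than 1 SD and 10 by more. Of these 10, 9 were with only the most abundant transcript and 1 was Hoxa3 without the spanning transcripts. Many of the 302 could not have moved by 1 SD. Leaving out 1 of 4 libraries cannot shift a mean that far, and no Hox transcript is under 300 nt. The 302 are thus no measure of how steady the levels are. Read counts are not used here, so precision at low FPKM is known only from the deposited bounds.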

Other observations

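Beside the 4 posterior Hoxd genes and Gm28309, 9 other genes tested had RVC 2 at least 2-fold above RVC 1 and fresh frozen 1 at least 2-fold above fresh frozen 2. They are named after their values were seen. Of these, 5 were immunoglobulin variable segments, a kappa segment and the heavy chain segments Ighv1-75, Ighv1-84, Ighv4-1 and Ighv1-66. Pdgfd, a growth factor of mesenchymal cells, was at 1.06 FPKM (RVC 1), 2.72 (RVC 2), 2.84 (fresh frozen 1) and 1.18 (fresh frozen 2). Mapk15 was at 1.56, 3.74, 2.18 and 0.969 FPKM. The predicted genes Gm31659 (0.466, 1.25, 5.46 and 0.696 FPKM) and Gm9800 (1.38, 2.85, 3.31 and 1.61) completed the set. Ratios for Gm28309 were 8.51 within RVC and 9.24 within fresh frozen, against 2.57 and 2.41 for Pdgfd.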
